A study of Mus musculus with 12 samples.

Results

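Activated T cells given IL-6 and TGF-β were compared with T cells activated in the same way without added cytokine. The comparison covered the 12045 genes that reached at least 1 FPKM (sequenced fragments scaled to transcript length in kilobases and to library size) in at least 3 of the 6 libraries concerned, out of 47643 genes in the deposited table. A level is given below in FPKM, which is per length, and a difference as IL-6+TGF-β minus Th0 in log2(FPKM + 1), with its standard error. Both groups were wild-type C57BL/6 mouse spleen cells labelled naive CD4+, plated at 500000 cells per well on antibodies to CD3 and CD28 (2 µg/ml of each) and harvested on day 3. Th0 cells (3 libraries) received no cytokine, and the IL-6+TGF-β cells (3 libraries) received 20 ng/ml of IL-6 with 2 ng/ml of TGF-β and are called the treated libraries. Another wild-type group, TNF+TGF-β (3 libraries; TNF at 20 ng/ml with the same TGF-β dose), is used to show where the IL-6 cells differed from another TGF-β culture. Neither cytokine was given alone to any group analysed here, so the share of IL-6 and of TGF-β in a difference from Th0 cannot be told apart. The age of the mice, and whether the 3 libraries of a group came from separate mice or cultures, are not given in the labels, so a p-value here speaks only of spread among these samples, part of which may be technical.

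IL-6 signals through its receptor and the shared chain gp130 to the kinases JAK1, JAK2 and TYK2, which activate the transcription factor STAT3. TGF-β signals through a pair of receptor kinases to SMAD2 and SMAD3. In a newly activated CD4 T cell the signals together induce the Th17 program, named for interleukin 17, whereas TGF-β without IL-6 favours Foxp3 and the regulatory T cell program.

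Estimated depth was similar in the 6 libraries, between 19700000 and 24000000 fragments, at which 3 fragments on a transcript of 1 kilobase correspond to 0.125 to 0.152 FPKM. Rank correlations across genes (Spearman; genes are not independent replicates) were 0.956 to 0.985 within a group and 0.898 to 0.923 between the groups. The CD4 label did not match the coreceptor genes. Cd8a, a chain of the CD8 coreceptor, lay above Cd4 in all 6 libraries. Cd4 had 18.9, 62.4 and 25.5 FPKM in Th0 and 4.07, 25.2 and 14.1 FPKM in the treated libraries. Cd8a had 48, 73.8 and 59.7 FPKM in Th0 and 194, 142 and 158 FPKM in the treated libraries. Cd8a rose (difference 1.44 ± 0.36, limma adjusted p = 0.0119), a call lost without Th0 replicate 1 (1.29, adjusted p = 0.0502). The difference of Cd4 missed the threshold (−1.35 ± 0.55, adjusted p = 0.0999) and passed it without IL-6+TGF-β replicate 2 (−1.88, adjusted p = 0.0306). Cd8b1, the other CD8 chain, had 67.3, 106 and 83.4 FPKM in Th0 and 149, 114 and 125 FPKM in the treated libraries (adjusted p = 0.133). The 10 CD4 and pan-T markers summed to 6061, 5844 and 6058 FPKM in Th0 and 5026, 4338 and 3896 FPKM with IL-6+TGF-β, and 5 were called lower (2 without Th0 replicate 1). RNA of other cells was present too. The summed level of 10 B cell markers was 1241, 883 and 1352 FPKM in the Th0 libraries and 934, 439 and 979 FPKM with IL-6+TGF-β. Among those markers Fcer2a, Cr2, Ms4a1 and Pax5 were called lower, and 2 markers were lower without Th0 replicate 1 or without Th0 replicate 3. The 12 MHC class II and dendritic cell genes, of which 8 were tested, summed to 10024, 7090.2 and 11609 FPKM in Th0 and 6071, 2801 and 6092 FPKM with IL-6+TGF-β, without overlap. Of these genes 4 were called lower, and 2, 1 and 1 without Th0 replicate 1, Th0 replicate 3 and IL-6+TGF-β replicate 2. Of 14 myeloid markers 11 were tested, with sums of 491, 327 and 498 FPKM against 381, 308 and 361 FPKM. Of these Mpeg1 and Lyz2 were called lower and 0 higher, with a median difference of −0.88, where 9.67% of all genes tested were lower. The count was 1 lower without any single library other than IL-6+TGF-β replicate 2, 5 lower when only the 6 libraries were fitted, and 5 lower and 2 higher with the replicate number as a block. The gamma-delta T cell gene Trdc was between 2.56 and 4.23 FPKM. Ncr1 and Klrb1c, which define NK cells, were too low to be tested, and 1 of 10 erythroid and platelet genes was tested. In bulk RNA, fewer cells of a type and less RNA per cell cannot be told apart. The cytokine pairs differed in such markers too. Against TNF+TGF-β, 6 of the 10 B cell markers were higher and 2 lower, with a median difference of 1.21. Over all genes tested 5.94% were higher and 6.43% lower. Of the 8 tested MHC class II and dendritic cell genes 1 was higher and 1 lower (median 0.703). The part of other cells in differences between the cytokine pairs was not tested.

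**Figure D1:**
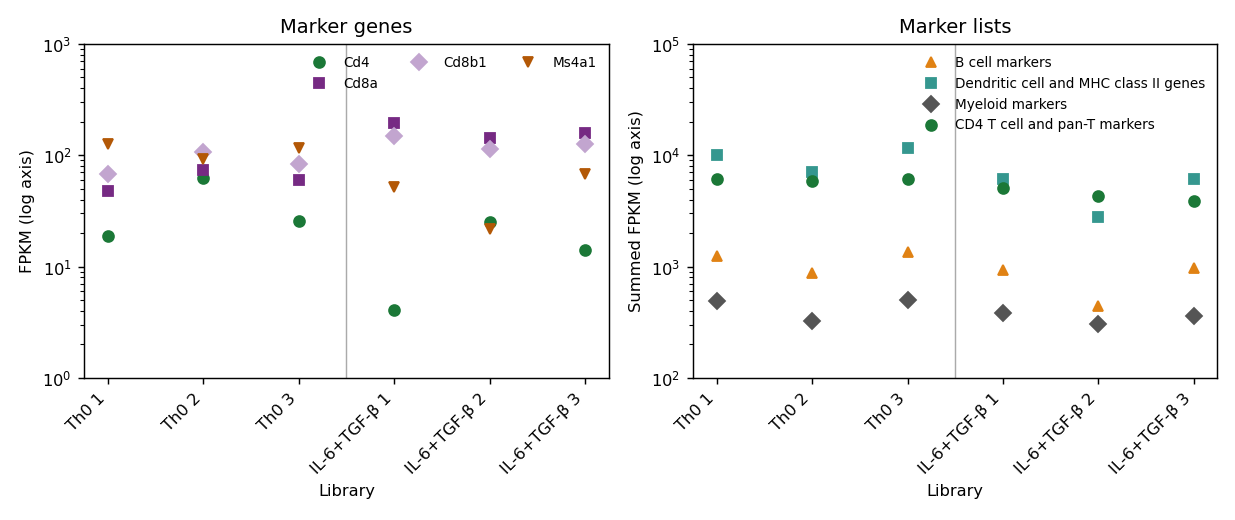
Level of 4 marker genes (left) and summed level of 4 marker lists (right) in each of the 6 libraries, in FPKM on log axes; each symbol is 1 library. Cd8a lies above Cd4 in all 6 libraries, and the MHC class II and dendritic cell sum is lower in each IL-6+TGF-β library than in each Th0 library.

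With IL-6+TGF-β, 1789 of the 12045 genes (14.9%) were higher than in Th0 and 1165 (9.67%) were lower at an adjusted p under 0.05, and 4357 had an unadjusted p under 0.05. Of the called genes, 847 were higher and 536 lower by at least 2-fold, and 102 were higher and 33 lower by at least 8-fold on the log2(FPKM + 1) scale. The median difference over all genes was 0.03, with the middle 50% of genes between −0.27 and 0.35. Each count of a gene list against Th0 below is to be read beside the shares of 14.9% higher and 9.67% lower. The filter was passed through the IL-6+TGF-β libraries alone by 301 genes, of which 266 were called higher, and through the Th0 libraries alone by 178, of which 135 were called lower; such genes had to differ, so where they are named below their values and differences from Th0 are a description and no p against Th0 is given. Genes that passed through the IL-6+TGF-β libraries alone were admitted because they were high there. This also limits a p against TNF+TGF-β where one is given for them. Leaving out Th0 replicate 3 reduced the genes called lower to 769. Rescaling to TPM moved the median of all genes from 0.03 to 0.14, and the share of called genes that were higher was 60.6% as deposited, 69.5% with TPM, 52.0% with median-ratio scaling and 50.7% with upper-quartile scaling.

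**Figure D2:**
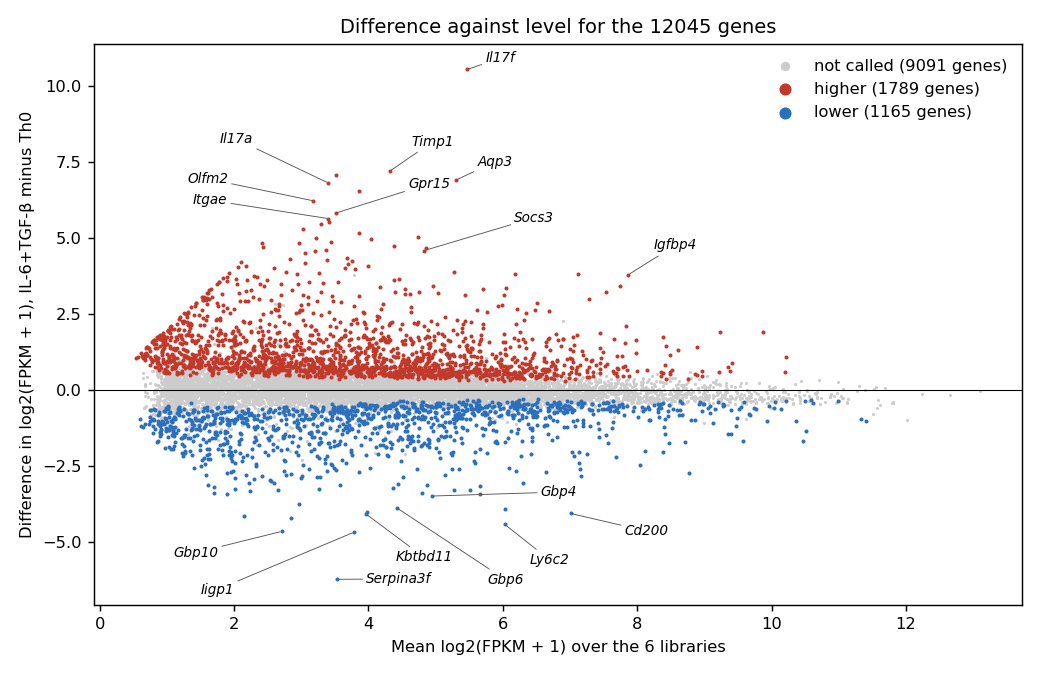
Difference in log2(FPKM + 1), IL-6+TGF-β minus Th0, against the mean log2(FPKM + 1) over the 6 libraries for the 12045 genes; each point is 1 gene, and colours mark the 1789 called higher and the 1165 called lower. Il17f lies highest at 10.53 and Serpina3f lowest at −6.24, and many of the lowest named genes encode interferon-induced GTPases.

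The 10 largest rises, among called genes whose groups did not overlap and whose mean was 10 FPKM or more in the higher one, were Il17f, Timp1, Snord13, Aqp3, Il17a, Olfm2, Gpr15, Itgae, Rnf208 and Emp1. Predicted genes (Gm and Rik names) and immunoglobulin and T cell receptor genes were left out of this ranking and of that of the falls; the IgA constant gene Igha (difference 6.55) and the IgG constant gene Ighg2c (−4.17) would otherwise have ranked, as would 2 Rik-named genes among the falls. Of the 10 rises 9, all but Aqp3, passed the filter only through the treated libraries. Aqp3, which encodes a channel for water and glycerol, had 2.09, 2.94 and 2.88 FPKM in Th0 and 427, 438 and 420.3 FPKM in the treated libraries. All 3 treated libraries lay far above Th0 and close to each other (difference 6.89 ± 0.15, adjusted p = 1.25e-10), and above the TNF+TGF-β libraries (118, 100.1 and 123 FPKM; adjusted p = 4.46e-06 for that difference). Olfm2, which encodes the secreted protein olfactomedin 2, had 0.08, 0.04 and 0.04 FPKM in Th0 and 78.2, 65.6 and 89.4 FPKM in the treated libraries (difference 6.21 ± 0.24). Emp1, which encodes the epithelial membrane protein 1, had 0.23, 0.87 and 0.44 FPKM in Th0 and 52.8, 72.2 and 69.3 FPKM in the treated libraries (difference 5.45 ± 0.28). TNF+TGF-β cells held intermediate levels of both genes, 22 ± 5.93 FPKM of Olfm2 and 10.8 ± 2.25 FPKM of Emp1 (SD, n = 3). Rnf208, which encodes a RING finger protein, had 0.26, 0.7 and 0.81 FPKM in Th0 and 47.4, 99 and 77 FPKM in the treated libraries, and 98.4, 105 and 99.1 FPKM with TNF+TGF-β. Its levels in both TGF-β cultures lay far above Th0, and the difference between these cultures did not pass the test (adjusted p = 0.265). Snord13 is a small nucleolar RNA gene of 104 bases that was listed at 0 in all Th0 libraries. The treated libraries had 39.8, 179 and 315 FPKM, a wide spread.

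The 10 largest falls were Serpina3f, Iigp1, Gbp10, Ly6c2, Kbtbd11, Cd200, Fcer2a, Serpina3g, Gbp6 and Gbp4. Among them 4 (Iigp1, Gbp10, Gbp6 and Gbp4) encode interferon-induced GTPases, and Serpina3f and Serpina3g are neighbouring protease inhibitor genes on chromosome 12. Serpina3f and Gbp10 passed the filter only through the Th0 libraries. Kbtbd11, which encodes a Kelch and BTB domain protein, had 65.8, 54.5 and 72.6 FPKM in Th0 and 2.44, 4.49 and 1.87 FPKM in the treated libraries (difference −4.10 ± 0.22, adjusted p = 1.26e-07). Fcer2a, the low-affinity IgE receptor gene, is a B cell marker. It had 53.8, 68.6 and 65.8 FPKM in Th0 and 2.75, 1.4 and 5.78 FPKM in the treated libraries (difference −4.01 ± 0.34, adjusted p = 4.8e-06). None of the 20 rises and falls lost its call under any alternative run. They were ranked by size among called genes without overlap, so this was close to fixed in advance and is a description.

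The receptor and its kinases came first in the IL-6 pathway. Of 12 genes for IL-6 receptor chains, kinases, STATs and related ligands, 6 were higher and 1 lower, with a median difference of 0.63. Il6ra, the ligand-binding chain, had 9.6, 8.7 and 12.4 FPKM in Th0 and 7.56, 12.7 and 10.9 FPKM in the treated libraries, overlapping ranges with a difference of 0.00 ± 0.20 (adjusted p = 0.992). Il6st, which encodes gp130, had 3.09, 4.56 and 2.63 FPKM in Th0 and 6.6, 16.5 and 15.8 FPKM in the treated libraries; each treated library exceeded each Th0 library (difference 1.59 ± 0.34, adjusted p = 0.00525). Stat3 had 90.3, 107 and 96.9 FPKM in Th0 and 165, 253 and 247 FPKM in the treated libraries (difference 1.15 ± 0.18, adjusted p = 0.000654), with no overlap between the groups. Stat5a and Stat5b, the STATs of IL-2 signalling, rose from 36.6 ± 3.87 to 111 ± 25.4 FPKM and from 28.9 ± 4.68 to 86.3 ± 27.3 FPKM (SD, n = 3 each; adjusted p = 0.000468 and 0.00165). Jak1 rose by 0.75 ± 0.15, and Osm, which encodes the gp130 ligand oncostatin M, rose from 4.61 ± 1.51 to 25.1 ± 3.17 FPKM (adjusted p = 1.09e-05).

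Feedback inhibitors and targets of STAT3 came next: 11 of 19 were higher and 0 lower, with a median difference of 0.99 against 0.03 over all genes. Socs3, the inhibitor that binds gp130 and shuts off IL-6 signalling, had 3.49, 7.17 and 4.38 FPKM in Th0 and 139, 126 and 149 FPKM in the treated libraries. The treated libraries lay close together, none overlapped Th0 (difference 4.58 ± 0.25, adjusted p = 1.38e-07), and TNF+TGF-β cells had 4.11, 8.02 and 5.26 FPKM (difference from them 4.39 ± 0.25, adjusted p = 4.4e-07). Timp1, a metalloproteinase inhibitor gene, had 0.72, 0.35 and 0.94 FPKM in Th0 and 341, 194 and 213 FPKM in the treated libraries and 6.23, 1.66 and 8.68 FPKM with TNF+TGF-β. The IL-6+TGF-β libraries stood above TNF+TGF-β without overlap (difference 5.41 ± 0.42, limma adjusted p = 4.46e-06), and the difference from Th0 was 7.20 ± 0.42. Bcl3, an NF-κB regulator gene, had 24.6, 35.5 and 27.1 FPKM in Th0 and 179.8, 184 and 193 FPKM in the treated libraries, and 87.5, 108 and 86.2 FPKM with TNF+TGF-β. It differed without overlap from both (adjusted p = 1.8e-07 and 0.000847). Pim1, a kinase gene that STAT3 induces, had 23.1, 37.5 and 21.9 FPKM in Th0 and 50.2, 78 and 84.3 FPKM in the treated libraries (difference 1.34 ± 0.23, adjusted p = 0.0013). Socs2 and Cish, inhibitors downstream of STAT5, rose by 2.17 ± 0.20 and 1.59 ± 0.37, and had 123 ± 25.8 and 129 ± 11.3 FPKM with TNF+TGF-β against 154 ± 13.2 and 81.5 ± 17 FPKM with IL-6+TGF-β. Neither difference between the cytokine pairs passed the test (adjusted p = 0.334 and 0.291). Socs1, the inhibitor that interferons induce, was not called, with 90.7, 83.3 and 105 FPKM in Th0 and 97, 87.9 and 93 FPKM in the treated libraries and overlapping ranges (adjusted p = 1).

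**Figure D3:**
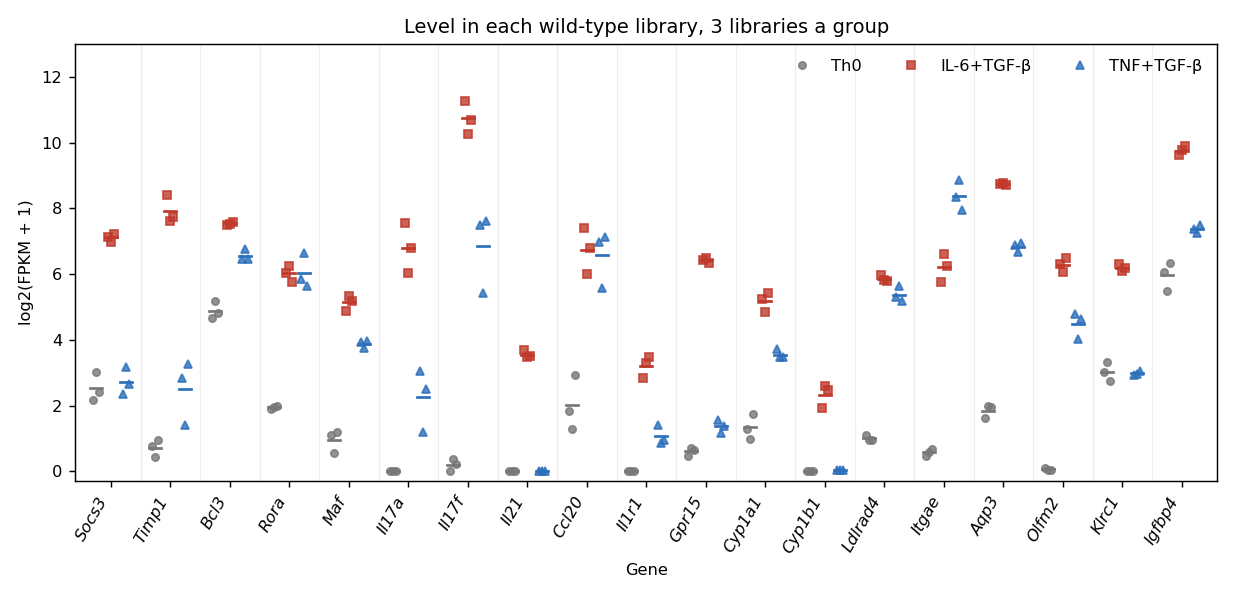
Level of 19 genes in each library of Th0, IL-6+TGF-β and TNF+TGF-β on the log2(FPKM + 1) scale; symbols are single libraries and bars are means of 3. Socs3, Il21, Gpr15, Cyp1b1 and Klrc1 lie higher in the IL-6+TGF-β libraries than in any library of the other groups, whereas the ranges of Rora and Ccl20 overlap between the cytokine pairs.

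Most genes for Th17 transcription factors rose: 13 of 20 were higher and 1 lower, with a median difference of 1.13. Rora, a nuclear receptor gene of the Th17 program, had 2.76, 2.92 and 3 FPKM in Th0 and 64.4, 75.7 and 53.7 FPKM in the treated libraries. All treated libraries exceeded all Th0 libraries (difference 4.06 ± 0.28, adjusted p = 8.39e-07). TNF+TGF-β cells reached 56.7, 98.5 and 48.6 FPKM of Rora, a range that overlapped that of the IL-6 cells (adjusted p = 0.976). Maf, the factor that induces Il10 and Il21, had 1.16, 0.49 and 1.32 FPKM in Th0 and 28.2, 39.8 and 35.7 FPKM in the treated libraries and 14.5, 12.5 and 14.5 FPKM with TNF+TGF-β. It differed without overlap from both (difference from Th0 4.17 ± 0.22, adjusted p = 9.33e-08; from TNF+TGF-β 1.25 ± 0.22, adjusted p = 0.00198). Batf, an AP-1 partner of IRF4 that opens Th17 loci, had 45, 53.8 and 38 FPKM in Th0 and 128, 124 and 118 FPKM in the treated libraries (difference 1.43 ± 0.22, adjusted p = 0.000561), against 51.1, 69.4 and 56.3 FPKM with TNF+TGF-β (limma adjusted p = 0.00691). Ikzf3, which encodes Aiolos, and Satb1, a chromatin organizer, rose by 1.48 ± 0.13 and 1.68 ± 0.27, and both lay above TNF+TGF-β as well (adjusted p = 9.03e-06 and 0.000931). Hif1a, a factor of Th17 metabolism, was not called, with 73.3, 95.5 and 75.5 FPKM in Th0 and 57.5, 82.4 and 76.5 FPKM in the treated libraries. Lef1, a factor of naive T cells and the list's called fall, had 106, 133 and 125 FPKM in Th0 and 32.2, 61.7 and 42.7 FPKM in the treated libraries (difference −1.43 ± 0.23, adjusted p = 0.00065).

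The cytokine products of the program followed. Of 11 Th17 cytokine and chemokine genes 8 passed the filter, and of these 6 were higher and 0 lower; Il17a, Il17f, Il21, Il9 and Il10 passed it only through the treated libraries, so this count is a description. Il17f (chr1:20777146-20790617 of GRCm38, a protein-coding gene on the minus strand) had 0, 0.3 and 0.17 FPKM in Th0 and 2466, 1222 and 1643 FPKM in the treated libraries. Il17a (chr1:20730905-20734496, plus strand), its neighbour within 60 kb, was listed at 0 in all Th0 libraries and had 186, 65.2 and 111 FPKM in the treated ones. Replicate 1 was the highest treated library and replicate 2 the lowest for both genes, and the level of Il17f exceeded that of Il17a in each. With TNF+TGF-β, Il17f had 180.2, 42.2 and 196 FPKM and Il17a 7.36, 1.3 and 4.67 FPKM, below every IL-6+TGF-β library (adjusted p = 0.000144 and 1.85e-05). Il21, an autocrine cytokine of Th17 cells, was listed at 0 in all Th0 and TNF+TGF-β libraries and had 11.9, 10.1 and 10.3 FPKM in the treated ones. Ccl20, the chemokine ligand of CCR6, had 2.6, 1.46 and 6.57 FPKM in Th0 and 168, 63.5 and 111 FPKM in the treated libraries (difference 4.72 ± 0.48, adjusted p = 2e-05) and 126, 47.1 and 139.8 FPKM with TNF+TGF-β (limma adjusted p = 0.865 between the cytokine pairs). Il9 was listed at 0 in Th0 and at 4.43, 4.62 and 8.17 FPKM, and its call was lost without Th0 replicate 1, Th0 replicate 3 or IL-6+TGF-β replicate 3. Il22 was listed at 0 in all 6 libraries.

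Among Th17 receptors and surface markers, 12 of 16 were tested, and 8 were higher and 2 lower (1 without Th0 replicate 3), with a median difference of 1.69. Of the 8 higher genes 4 (Il1r1, Il17re, Cd5l and Cysltr1) passed the filter only through the treated libraries, so this count too is a description. Il1r1, the receptor through which IL-1 sustains Th17 cells, had 0.01, 0.02 and 0.01 FPKM in Th0 and 6.14, 8.8 and 10.2 FPKM in the treated libraries. TNF+TGF-β cells had 1.64, 0.84 and 0.93 FPKM. Each IL-6+TGF-β library lay above all TNF+TGF-β libraries (difference 2.13 ± 0.23, limma adjusted p = 6.59e-05). Il23r, the receptor for IL-23, was below the filter, with 0, 0 and 0.12 FPKM in Th0 and 0.97, 1.28 and 1.06 FPKM with IL-6+TGF-β, and was not tested. Ccr6 had 36.1, 46.3 and 49.2 FPKM in Th0 and 155, 108 and 160.4 FPKM in the treated libraries (difference 1.65 ± 0.18, adjusted p = 3.87e-05) and still higher levels with TNF+TGF-β, 467, 416 and 446 FPKM (adjusted p = 6.19e-05). Il17re, a chain of the IL-17C receptor, went from 0.0233 ± 0.0252 to 6.1 ± 1.78 FPKM, and Cd5l, which encodes a regulator of lipid metabolism in Th17 cells, from 0.143 ± 0.0757 to 4.31 ± 0.227 FPKM (SD, n = 3). The falls were those of Slamf6, 142, 137 and 138 FPKM in Th0 and 48.2, 35.5 and 45.8 FPKM in the treated libraries (difference −1.68 ± 0.18, adjusted p = 3.71e-05), and of Il12rb1. Il12rb1, the shared IL-12 and IL-23 receptor chain, had 25, 29.2 and 29.7 FPKM in Th0 and 10.2, 15.1 and 11.8 FPKM in the treated libraries (−1.12 ± 0.29, adjusted p = 0.0147; 0.0528 without Th0 replicate 3).

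Published lists that separate inflammatory ("pathogenic") from regulatory Th17 cells gave different counts against Th0. The lists separate kinds of Th17 cell, so a comparison with Th0 does not place the treated cells between those kinds. Of the 7 non-pathogenic genes 6 were higher (Maf, Ahr, Il9, Il10, Il6st and Ikzf3) and 0 lower, with a median difference of 1.65; Il9 and Il10 passed the filter only through the treated libraries. Of the pathogenic genes, 14 of 16 were tested, and 7 were lower and 2 higher, with a median difference of −0.71. Over all genes tested 9.67% were lower and 14.9% higher, so the count of 2 higher was near that share. Against TNF+TGF-β, 4 of these 14 genes were higher and 3 lower, with a median difference of 0.105. Among the 7 non-pathogenic genes 4 were higher and 1 lower than with TNF+TGF-β, with a median difference of 1.096. Il10, an anti-inflammatory cytokine gene, had 0.19, 0.57 and 0.7 FPKM in Th0 and 4.3, 3.5 and 3.1 FPKM in the treated libraries and 0.04, 0.22 and 0 FPKM with TNF+TGF-β. Each treated library lay above all TNF+TGF-β libraries, none of which reached 1 FPKM. Gzmb, the granzyme B gene, had 129, 618 and 205 FPKM in Th0 and 32.4, 38.9 and 44.4 FPKM in the treated libraries. Th0 replicate 2 was far above the other Th0 libraries, and no treated library reached any Th0 library (difference −2.70 ± 0.43, adjusted p = 0.000716). Ccl5, a chemokine of effector T cells, had 35.8, 34.7 and 37.8 FPKM in Th0 and 5.22, 4.52 and 4.23 FPKM in the treated libraries (difference −2.72 ± 0.28, adjusted p = 2.59e-05). Csf2, which encodes the inflammatory cytokine GM-CSF, had 4.86, 5.74 and 9.27 FPKM in Th0 and 0.71, 0.58 and 1.9 FPKM in the treated libraries (difference −1.90 ± 0.29, adjusted p = 0.00053), against 68.5, 77.8 and 86 FPKM with TNF+TGF-β. The inflammatory caspase gene Casp1 had a difference of −2.29 ± 0.29 (adjusted p = 0.000124), and Lrmp, an endoplasmic reticulum membrane protein gene, went from 283 ± 12.3 to 62 ± 6.8 FPKM (SD, n = 3; adjusted p = 6.55e-08). The 2 risers were Lgals3, the galectin 3 gene, from 36.2 ± 3.04 to 531 ± 160.0 FPKM (adjusted p = 7.42e-05), and Il7r. Il7r, the IL-7 receptor gene, had 0.57, 1.47 and 0.86 FPKM in Th0 and 17.5, 25.9 and 19.5 FPKM in the treated libraries.

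Ahr encodes the aryl hydrocarbon receptor, a ligand-activated factor that induces cytochrome P450 enzymes and supports IL-22 and IL-10 production. It had 1.01, 1.17 and 0.99 FPKM in Th0 and 20.0, 36 and 29.4 FPKM in the treated libraries, with no overlap (difference 3.80 ± 0.26, adjusted p = 7.98e-07). Of 8 target genes 7 were tested, and 6 were higher and 0 lower, with a median difference of 2.11 (3.41 with a pseudocount of 0.1); 3 of the 6 (Gpr15, Cyp1b1 and Ahrr) passed the filter only through the treated libraries. Cyp1a1 had 1.44, 0.99 and 2.38 FPKM in Th0 and 37.2, 27.9 and 41.9 FPKM in the treated libraries and 12.1, 10.1 and 10.1 FPKM with TNF+TGF-β. The cytokine pairs differed too (1.62 ± 0.30, adjusted p = 0.00334). Cyp1b1 had 0, 0.02 and 0 FPKM in Th0 and 2.84, 5.04 and 4.6 FPKM in the treated libraries and no more than 0.04 FPKM in any TNF+TGF-β library, so it was near 0 in both other groups. Gpr15, a gut-homing receptor gene that AHR regulates, had 0.4, 0.63 and 0.56 FPKM in Th0 and 84.6, 89 and 80.8 FPKM in the treated libraries and 1.95, 1.24 and 1.62 FPKM with TNF+TGF-β. Its treated libraries were tightly grouped and stood apart from TNF+TGF-β (difference 5.05 ± 0.16, limma adjusted p = 1.23e-08), and the difference from Th0 was 5.81 ± 0.16. Tiparp, which encodes an inhibitor of the receptor, rose by 1.38 ± 0.19, whereas Ahrr, the AHR repressor gene, had a difference of 1.54 ± 0.24; its difference from TNF+TGF-β did not pass the test (adjusted p = 0.404).

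In the TGF-β pathway, 14 of 16 genes for ligands, receptors and SMADs were tested, and 7 were higher and 0 lower (4 higher without IL-6+TGF-β replicate 2, and 1 lower without Th0 replicate 2). Tgfbr1, the signalling receptor kinase, had 2.31, 2.02 and 2.19 FPKM in Th0 and 14.6, 20.3 and 21.6 FPKM in the treated libraries (difference 2.63 ± 0.19, adjusted p = 1.52e-06) and 49.8, 48.5 and 41.8 FPKM with TNF+TGF-β, a step above the IL-6 cells (adjusted p = 0.000739). Smad3, the transcriptional mediator, had 1.98, 3.44 and 2.73 FPKM in Th0 and 5.09, 11.2 and 8.42 FPKM in the treated libraries (difference 1.27 ± 0.29, adjusted p = 0.00733). Feedback and target genes moved further: of 16 tested of 21, 12 were higher and 1 lower, with a median difference of 1.82. Ldlrad4, a membrane inhibitor of SMAD activation, had 1.16, 0.96 and 0.93 FPKM in Th0 and 61.9, 56.1 and 54.2 FPKM in the treated libraries, tightly grouped in both (difference 4.86 ± 0.15, adjusted p = 2.82e-09). Smad7, the inhibitory SMAD, had 1.8, 3.23 and 1.81 FPKM in Th0 and 8.04, 32.7 and 21 FPKM in the treated libraries; replicate 1 was the lowest treated library but still above Th0 (difference 2.55 ± 0.40, adjusted p = 0.000591). Furin, the protease that matures TGF-β, had 7.31, 13.3 and 9.81 FPKM in Th0 and 41.9, 155 and 146 FPKM in the treated libraries, again lowest in treated replicate 1 (difference 3.19 ± 0.48, adjusted p = 0.000427). Pmepa1, another inhibitor of SMAD activation, had 5.11, 3.76 and 7.22 FPKM in Th0 and 71.5, 87.3 and 72 FPKM in the treated libraries (difference 3.65 ± 0.20, adjusted p = 1.59e-07). Skil and Ski, SMAD corepressor genes, rose by 2.17 ± 0.20 and 1.98 ± 0.38. Nt5e, which encodes the adenosine-producing enzyme CD73, rose from 35.2 ± 6.51 to 220.5 ± 6.93 FPKM (SD, n = 3; adjusted p = 2.82e-06). The inhibitors of DNA binding split, with Id2 higher (66.3 ± 3.67 to 213 ± 28.9 FPKM) and Id3 lower (176 ± 55.8 to 62.5 ± 18.4 FPKM; adjusted p = 4.21e-06 and 0.00226).

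Against TNF+TGF-β, 715 of the 12045 genes (5.94%) were higher with IL-6+TGF-β and 774 (6.43%) lower (509 lower without TNF+TGF-β replicate 1). Of the 16 TGF-β feedback and target genes, 0 were higher and 2 lower in that comparison, with a median difference of −0.20. Itgae, which encodes the CD103 integrin chain, was one of the lower genes. It had 0.4, 0.51 and 0.61 FPKM in Th0 and 53.7, 97.8 and 75.2 FPKM in the treated libraries, and 325, 462 and 248 FPKM with TNF+TGF-β. The cytokine pairs did not overlap (difference −2.17 ± 0.30, limma adjusted p = 0.000395), and the difference from Th0 was 5.63 ± 0.30. Ldlrad4 (38.3, 48.8 and 35.3 FPKM with TNF+TGF-β) and Smad7 (22.6, 31.1 and 20.0 FPKM) did not pass the test between the cytokine pairs (adjusted p = 0.0577 and 0.569).

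Regulatory T cell genes moved both ways. Of 17 tested, 9 were higher and 3 lower, with a median difference of 0.98. With median-ratio or upper-quartile scaling 5 were lower. Against TNF+TGF-β, 1 of the 17 was higher and 6 were lower, with a median difference of −0.94, where 5.94% of all genes tested were higher and 6.43% lower. Foxp3, the lineage factor, had 2.91, 4.94 and 6.62 FPKM in Th0 and 35.9, 77 and 68.5 FPKM in the treated libraries, without overlap (difference 3.38 ± 0.42, adjusted p = 0.000107). Ikzf4, which encodes the Foxp3 partner Eos, had 0.96, 2.88 and 0.69 FPKM in Th0 and 14.5, 27.3 and 25 FPKM in the treated libraries (difference 3.27 ± 0.33, adjusted p = 1.98e-05). Ctla4, the inhibitory CD28 relative, rose by 0.98 ± 0.22 and Capg, an actin-capping protein gene, by 1.90 ± 0.22. Izumo1r, the folate receptor 4 gene, fell the most, with 203, 247 and 234 FPKM in Th0 and 16.2, 32.1 and 34.3 FPKM in the treated libraries (difference −3.07 ± 0.29, adjusted p = 1.37e-05). Tnfrsf18, which encodes GITR, had 277, 321 and 291 FPKM in Th0 and 122, 97.2 and 82.4 FPKM in the treated libraries (difference −1.56 ± 0.18, adjusted p = 5.29e-05) and 370.2, 474 and 373 FPKM with TNF+TGF-β. Tigit, an inhibitory receptor gene, had a difference of −1.67 ± 0.20 (adjusted p = 7.26e-05). Ikzf2 and Nrp1, which encode Helios and neuropilin 1, were not called against Th0. Ikzf2 had 1.92, 1.5 and 1.67 FPKM in Th0 and 1.48, 2.18 and 0.89 FPKM in the treated libraries, and 22.5, 24.2 and 16.9 FPKM with TNF+TGF-β (limma adjusted p = 2.28e-06 between the cytokine pairs). Nrp1 had 14.1, 14.9 and 17.3 FPKM in Th0 and 8.61, 11.6 and 10.8 FPKM in the treated libraries, and 80.4, 90.6 and 64.1 FPKM with TNF+TGF-β (limma adjusted p = 1.43e-06). The IL-6 cells lay far below the TNF+TGF-β cells in both genes, and Nrp1 was called lower than Th0 with median-ratio (−0.61) and upper-quartile scaling (−0.64).

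The list of Th1 genes held 14 tested of 16, of which 5 were lower and 3 higher (median difference −0.09). Tbx21, the lineage factor T-bet, had 46.3, 64 and 46 FPKM in Th0 and 11.1, 13.6 and 16.4 FPKM in the treated libraries (difference −1.85 ± 0.25, adjusted p = 0.000175). Eomes, its relative, passed the filter only through Th0 and had 2.26, 4.14 and 1.7 FPKM in Th0 and 0.22, 0.45 and 0.59 FPKM in the treated libraries. Stat4, the IL-12 signal transducer, had 47.9, 73 and 50.2 FPKM in Th0 and 26.8, 27.3 and 22.5 FPKM in the treated libraries (adjusted p = 0.00336). Treated and untreated libraries did not overlap for Tbx21 and Stat4, whereas for Eomes the filter fixed this in advance. Ifng itself had 7.32, 27.7 and 17.3 FPKM in Th0 and 16.3, 10.9 and 20.2 FPKM in the treated libraries, with overlapping ranges and a difference of 0.00 ± 0.47 (adjusted p = 0.999). Fasl, the death ligand gene, had 8.14, 7.95 and 9.15 FPKM in Th0 and 1.04, 1.16 and 0.93 FPKM in the treated libraries (difference −2.20 ± 0.27, adjusted p = 9.28e-05). The TNF+TGF-β cells kept 8.26, 5.13 and 4.92 FPKM (adjusted p = 0.000847). The chemokine receptors of the list rose: Cxcr6 had 9.26, 6.57 and 10.2 FPKM in Th0 and 130.4, 84.2 and 90.3 FPKM in the treated libraries (difference 3.40 ± 0.28, adjusted p = 3.59e-06). Cxcr3 had 18.8, 26.6 and 23.7 FPKM in Th0 and 57.4, 46.2 and 53.7 FPKM in the treated libraries (1.16 ± 0.25, adjusted p = 0.00496). Gata3, the Th2 factor, was not called against Th0, with 6.52, 10.2 and 8.12 FPKM in Th0 and 3.55, 6.34 and 6.12 FPKM in the treated libraries. TNF+TGF-β cells had 77.1, 100.4 and 72 FPKM (difference between the cytokine pairs −3.75 ± 0.29, adjusted p = 4.71e-06).

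Receptors that direct migration followed. Of 21 chemokine and related migration receptors 14 were tested; 9 were higher (Gpr15, Ccr8, Cxcr6, Cx3cr1, S1pr1, Cxcr4, Ccr4, Ccr6 and Cxcr3) and 1 was lower, with a median difference of 1.66; Gpr15 and Cx3cr1 passed the filter only through the treated libraries. Ccr8, a receptor of skin-homing and regulatory T cells, had 17.5, 17.9 and 20.1 FPKM in Th0 and 322, 262 and 236 FPKM in the treated libraries (difference 3.80 ± 0.21, adjusted p = 1.53e-07). Cx3cr1, the fractalkine receptor gene, had 0.04, 0 and 0.04 FPKM in Th0 and 4.59, 5.64 and 4.84 FPKM in the treated libraries and 17.6, 21.3 and 16.5 FPKM with TNF+TGF-β. The cytokine pairs did not overlap (limma adjusted p = 0.000495). S1pr1, which lets T cells leave lymphoid tissue, had 23.2, 14.8 and 26.4 FPKM in Th0 and 80.3, 64.3 and 101 FPKM in the treated libraries and 26, 43 and 26.3 FPKM with TNF+TGF-β. The IL-6 cells were the highest of the groups (adjusted p = 0.0004 and 0.00679). Gpr183, the oxysterol receptor, was the lower gene, from 27.9 ± 3.89 to 15 ± 5.08 FPKM (adjusted p = 0.0232), a call lost without Th0 replicate 1, Th0 replicate 3 or IL-6+TGF-β replicate 2 (adjusted p = 0.0813, 0.0773 and 0.0852). The lymph node homing gene Ccr7 was not called, at 525 ± 134 FPKM in Th0 against 612 ± 80.7 FPKM in the treated libraries (SD, n = 3; adjusted p = 0.476).

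Several genes of naive and long-lived T cells rose beside them: 8 of 16 were higher and 2 lower (median difference 0.51). Igfbp4, which encodes an insulin-like growth factor binding protein, had 66.6, 44.3 and 80.5 FPKM in Th0 and 781, 875 and 948 FPKM in the treated libraries. The treated libraries lay far above Th0 and above TNF+TGF-β at 166, 152 and 178 FPKM (difference from Th0 3.78 ± 0.25, adjusted p = 6.71e-07; from TNF+TGF-β 2.38 ± 0.25, adjusted p = 4.95e-05). Tcf7, which encodes TCF-1, had 38.4, 84.9 and 53.4 FPKM in Th0 and 114, 276 and 189 FPKM in the treated libraries (difference 1.68 ± 0.33, adjusted p = 0.00289). Foxo1, a factor of quiescence, had 13.2, 17.3 and 16.1 FPKM in Th0 and 39.9, 64.9 and 59.2 FPKM in the treated libraries (1.73 ± 0.18, adjusted p = 2.51e-05). Dapl1, a gene of resting T cells, went the other way with Lef1, from 62.7 ± 6.17 to 6.44 ± 0.427 FPKM (SD, n = 3; difference −3.09 ± 0.25, adjusted p = 3.16e-06).

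**Figure D4:**
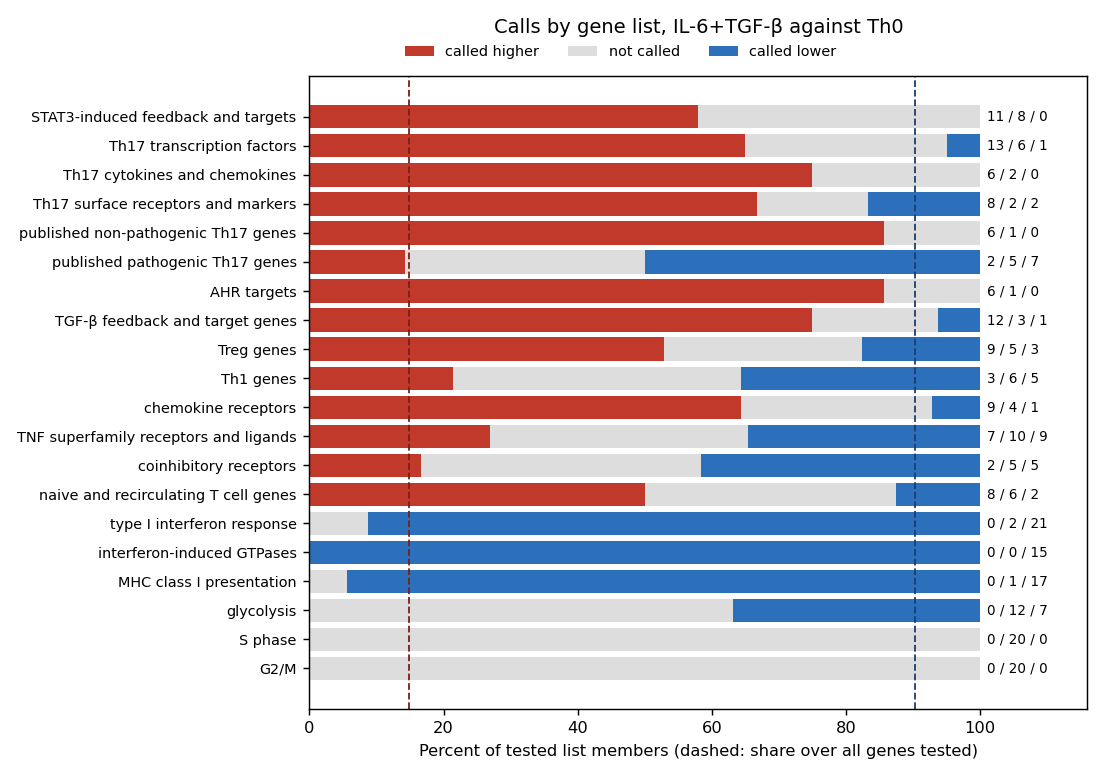
Share of the tested members of 20 gene lists called higher, not called and called lower with IL-6+TGF-β against Th0, with the counts at the right (higher / not called / lower). Dashed lines mark the share over all genes, 14.9% higher from the left and 9.67% lower from the right. The 3 interferon and MHC class I lists hold 0 higher genes, as do the glycolysis, S phase and G2/M lists.

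TNF superfamily receptors and ligands split by direction, with 7 of 26 higher and 9 lower (median difference −0.12). Tnfrsf25, which encodes death receptor 3, had 3.19, 1.8 and 1.52 FPKM in Th0 and 63.8, 58.5 and 51.2 FPKM in the treated libraries (difference 4.24 ± 0.19, adjusted p = 3.44e-08). Tnfrsf8, which encodes CD30, had 0.25, 0.97 and 0.56 FPKM in Th0 and 3.79, 11.2 and 6.52 FPKM in the treated libraries and 0.75, 0.67 and 0.73 FPKM with TNF+TGF-β, so no Th0 or TNF+TGF-β library reached 1 FPKM. Its ligand went the other way: Tnfsf8, CD30L, had 29.5, 23.9 and 31.8 FPKM in Th0 and 4.6, 3.87 and 4.99 FPKM in the treated libraries and 63.6, 74.3 and 56.2 FPKM with TNF+TGF-β (difference from Th0 −2.42 ± 0.24, adjusted p = 1.53e-05; from TNF+TGF-β −3.58 ± 0.24, adjusted p = 1.23e-06). Tnfrsf4, the OX40 gene, and Cd70, the CD27 ligand gene, fell from 519.5 ± 73.4 to 222 ± 56.7 FPKM and from 3.68 ± 0.255 to 1.17 ± 0.338 FPKM (SD, n = 3; adjusted p = 0.000549 and 0.000436). Against TNF+TGF-β, 2 of the 26 genes were higher and 14 lower.

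Of the coinhibitory receptors and their ligands, 12 of 15 were tested, and 5 were lower and 2 higher (median difference −0.20). The count of 2 higher was near the share over all genes tested, 14.9%, where 9.67% were lower. Cd200, which encodes a ligand that restrains myeloid cells, had 557, 479 and 549 FPKM in Th0 and 29.9, 26.9 and 34.8 FPKM in the treated libraries and 144, 121 and 133 FPKM with TNF+TGF-β. The IL-6 libraries were the lowest of the 3 groups without overlap (difference from Th0 −4.07 ± 0.13, adjusted p = 2.82e-09; from TNF+TGF-β −2.09 ± 0.13, adjusted p = 8.24e-07). Btla, the HVEM receptor gene, had 85, 63.8 and 80.9 FPKM in Th0 and 17.7, 11.6 and 24.2 FPKM in the treated libraries (difference −2.09 ± 0.24, adjusted p = 6.17e-05). Cd96, a receptor for CD155, rose by 1.61 ± 0.23 (adjusted p = 0.000323). Pdcd1 (PD-1) and Lag3 were not called. Pdcd1 had 192, 93.5 and 181 FPKM in Th0 and 141, 111 and 137 FPKM in the treated libraries. Lag3 had 10.9, 24.4 and 15.3 FPKM in Th0 and 12.8, 36.6 and 25.1 FPKM in the treated libraries. B cells also express Cd200 and Btla, and the B cell marker sums given above had a lower range with IL-6+TGF-β; their part in these results was not tested.

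Killer lectin-like receptors, best known from NK and CD8 T cells, numbered 19, of which 8 were tested, and 4 were higher and 0 lower; Klre1 and Klri2 passed the filter only through the treated libraries. Klrd1 (CD94) had 12.8, 23.8 and 12.1 FPKM in Th0 and 175, 176 and 145 FPKM in the treated libraries. Klrc1 (NKG2A), with which CD94 pairs as an inhibitory receptor, had 7.12, 9.08 and 5.72 FPKM in Th0 and 77.8, 67.4 and 71.2 FPKM in the treated libraries. Neither overlapped Th0 (differences 3.33 ± 0.30 and 3.16 ± 0.29, adjusted p = 7.67e-06 and 1.04e-05), and TNF+TGF-β cells had lower levels of both (29.5, 34.5 and 38.5 and 6.7, 6.76 and 7.37 FPKM; adjusted p = 0.000297 and 1.55e-05). The 5 tested genes Klre1, Klrd1, Klrk1, Klrc1 and Klri2 lie within 163 kb at chr6:129577905-129740484 of GRCm38, and no other tested protein-coding gene lies in that span. Among 8 tested cytotoxic granule genes, Ctsw (cathepsin W) had 59.8, 58.6 and 63.4 FPKM in Th0 and 661, 521 and 522 FPKM in the treated libraries (difference 3.20 ± 0.16, adjusted p = 8.22e-08). Gzma, which passed the filter only through the treated libraries, went from 0.523 ± 0.384 to 2.83 ± 0.986 FPKM (SD, n = 3), and Gzmb fell. Prf1, which encodes perforin, was not called against Th0 (16.3 ± 5.09 and 26.7 ± 5.8 FPKM) but exceeded TNF+TGF-β (4.49 ± 0.585 FPKM; adjusted p = 0.000456). Among 6 CD8 T cell markers, Cd8a and Cd7 rose, Eomes fell, and Cd8b1, Runx3 and Crtam were not called. Cd7 had 2.13, 1.74 and 3.66 FPKM in Th0 and 40.8, 49 and 29.5 FPKM in the treated libraries. The part of CD8 T cells in these values was not tested; the NK genes Ncr1, Klrb1c, Klra8 and Klra4 were too low to be tested.

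The lists with the largest shares of genes called lower were those of genes that interferons induce. Many such genes carry short promoter sequences for the interferon-activated factors: the interferon-stimulated response element (ISRE), bound by interferon-activated complexes and IRFs, and the gamma-activated site (GAS), bound by STAT dimers, STAT3 among them. The stretches below come from the RefSeq promoter windows (250 bases before to 50 after the transcription start, GRCm38.p6) and are shown because 2 letter patterns, GAAANNGAAA for the ISRE and TTCNNNGAA for the GAS, occur in these interferon genes, which fell, and in Socs3, which rose. Each is written 5′ to 3′ on the gene's strand and ends before the start site, with matches on either strand in capitals. They are Isg15 (chr4:156200819-156200938, minus strand), Ifit1 (chr19:34640769-34640888, plus), Irgm2 (chr11:58214877-58214976, plus), Igtp (chr11:58199456-58199555, plus), Tgtp1 (chr11:48992247-48992346, minus), Tgtp2 (chr11:49064213-49064312, minus) and Socs3 (chr11:117969437-117969556, minus).
Isg15: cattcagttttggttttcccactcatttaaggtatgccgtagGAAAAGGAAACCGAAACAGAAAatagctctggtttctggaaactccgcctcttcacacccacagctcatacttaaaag
Ifit1: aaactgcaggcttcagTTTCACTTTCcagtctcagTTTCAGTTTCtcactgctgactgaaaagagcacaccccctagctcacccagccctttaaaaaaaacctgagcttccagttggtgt
Irgm2: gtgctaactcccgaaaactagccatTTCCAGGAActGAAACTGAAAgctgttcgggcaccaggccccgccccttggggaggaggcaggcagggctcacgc
Igtp: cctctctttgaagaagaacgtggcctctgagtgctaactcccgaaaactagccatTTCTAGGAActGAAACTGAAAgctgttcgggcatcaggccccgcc
Tgtp1: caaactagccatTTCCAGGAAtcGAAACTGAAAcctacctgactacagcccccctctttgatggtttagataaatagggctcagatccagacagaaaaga
Tgtp2: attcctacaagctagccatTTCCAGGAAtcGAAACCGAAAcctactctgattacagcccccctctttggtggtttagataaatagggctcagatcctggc
Socs3: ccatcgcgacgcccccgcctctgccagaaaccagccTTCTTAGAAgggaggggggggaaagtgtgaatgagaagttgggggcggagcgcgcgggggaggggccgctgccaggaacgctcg

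In Irgm2, Igtp, Tgtp1 and Tgtp2 the GAS letters start 11 bases before the ISRE letters, at 75, 45, 88 and 81 bases before the transcription start. Isg15 holds 3 overlapping ISRE matches from 78 bases before its start, Ifit1 holds 2, and Socs3 holds a GAS match 154 bases before its start and no ISRE match. Of 32851 promoter windows of this length in the table, 3.44% held the ISRE letters. Windows were found for 8678 of the tested genes; the ISRE letters were in 7.81% of the windows of genes called lower, 2.17% of those called higher and 2.95% of those not called. They were found in 9 of 9 GTPase genes with a window, 10 of 18 type I interferon response genes and 5 of 15 MHC class I genes. The GAS letters were in 8.3% of all windows, 8.2% of those of genes called lower, 6.72% of those called higher and 6.61% of those not called. They were found in 6 of 9 GTPase genes with a window, 4 of 18 type I interferon response genes, 1 of 15 MHC class I genes and 3 of 15 STAT3 feedback and target genes (Bcl6, Cish and Socs3). A match describes the letters only, and windows of neighbouring copies are not independent.

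Of the 29 type I interferon response genes 23 were tested, and 21 were lower and 0 higher with IL-6+TGF-β, with a median difference of −1.42; 4 of the 21 (Ifit1, Oas3, Oasl1 and Oasl2) passed the filter only through Th0. Isg15, a ubiquitin-like modifier, had 18.9, 17.9 and 16.7 FPKM in Th0 and 1.55, 1.44 and 2.36 FPKM in the treated libraries, tightly grouped in Th0 (difference −2.77 ± 0.20, adjusted p = 1.58e-06). Ifih1, the RNA sensor MDA5, had 16.8, 15.7 and 16.9 FPKM in Th0 and 0.97, 1.14 and 1.11 FPKM in the treated libraries and 7.54, 7.83 and 6.89 FPKM with TNF+TGF-β. The IL-6 libraries lay below both (limma adjusted p = 6.18e-07 and 3.17e-05). Ifih1 was not typical of its list in the second comparison. Against TNF+TGF-β, 1 of the 23 tested genes was higher and 2 were lower, with a median difference of −0.12. Over all genes tested 5.94% were higher and 6.43% lower in that comparison. Zbp1, a sensor of nucleic acid that triggers cell death, had 162, 144 and 186 FPKM in Th0 and 44, 32.6 and 31.3 FPKM in the treated libraries (difference −2.17 ± 0.16, adjusted p = 1.66e-06). Oasl2, a gene of the oligoadenylate synthetase family, went from 8.85 ± 3.94 to 0.77 ± 0.135 FPKM (SD, n = 3). Ifit1 and Ifit3 encode RNA-binding antiviral proteins. Ifit1 had 2.6, 1.91 and 3.51 FPKM in Th0 and 0.31, 0.39 and 0.33 FPKM in the treated libraries. Ifit3 had 20.9, 3.6 and 23.7 FPKM in Th0 and 0.59, 1.23 and 0.57 FPKM in the treated libraries. Th0 replicate 2 was the lowest Th0 library for both, and both lost the call without Th0 replicate 3. Irf9 and Ddx58 were the 2 tested genes not called. The count of 21 ranged from 16 to 20 when single libraries were left out, and with a filter of 5 FPKM, which tests fewer genes, it was 13.

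**Figure D5:**
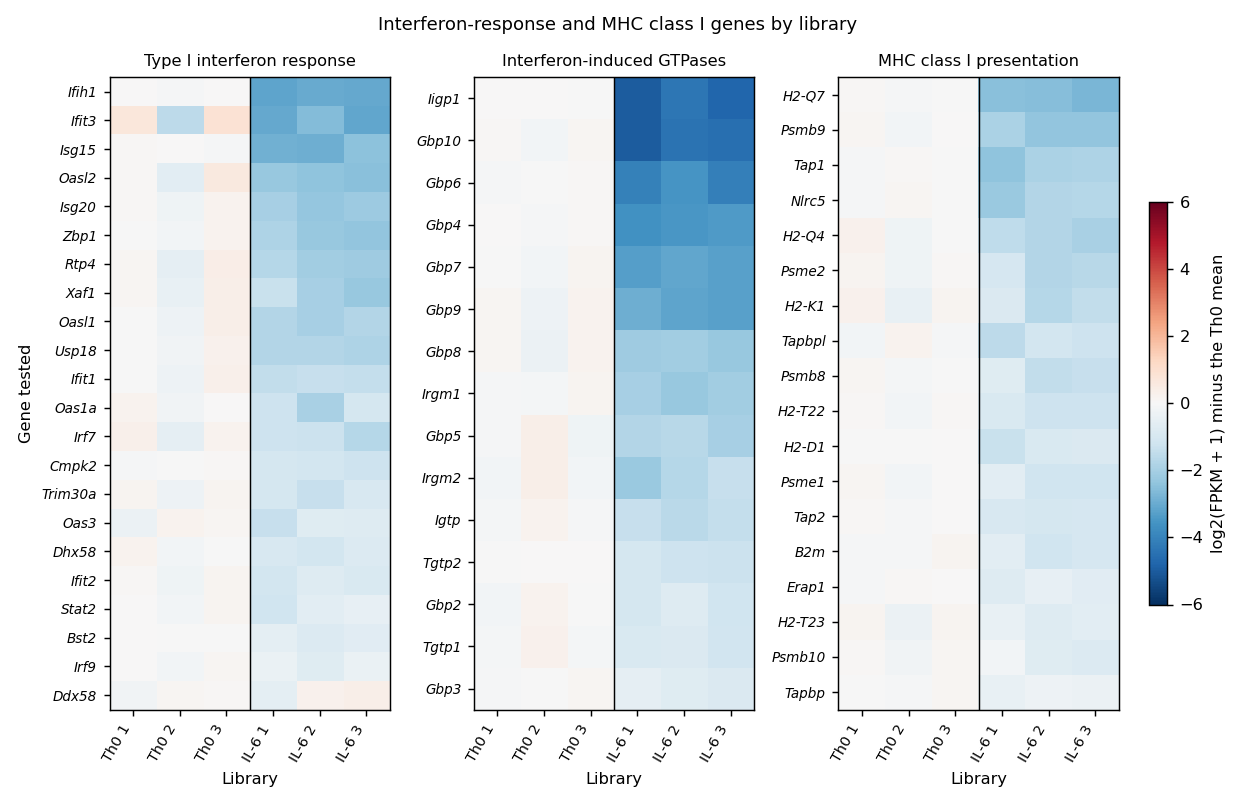
Level of tested type I interferon response (22 of 23), interferon-induced GTPase and MHC class I presentation genes in each library, as log2(FPKM + 1) minus the mean of the 3 Th0 libraries; blue is below and red above that mean, and genes are ordered by difference. The IL-6+TGF-β columns are blue for all 15 GTPase genes, and Ifit3 shows the widest spread among Th0 libraries.

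All 15 tested of 16 interferon-induced GTPase genes were lower, with a median difference of −2.11, and the count was 15 in each of the 6 fits that left out 1 library. Their products attack the membranes around intracellular pathogens. Iigp1 had 70.0, 69.7 and 67.6 FPKM in Th0 and 1.23, 2.44 and 1.62 FPKM in the treated libraries. Gbp10 had 33.8, 27.9 and 34.4 FPKM in Th0 and 0.02, 0.51 and 0.42 FPKM in the treated libraries. Gbp4 had 104, 98 and 107 FPKM in Th0 and 7.47, 8.38 and 8.78 FPKM in the treated libraries, and Gbp6 fell from 81.6 ± 4.54 to 4.66 ± 1.27 FPKM (SD, n = 3). The differences of Iigp1, Gbp10, Gbp4 and Gbp6 were −4.69, −4.66, −3.50 and −3.89 (limma adjusted p = 1.13e-08, 3.44e-08 and 2.19e-08 for Iigp1, Gbp4 and Gbp6). None of the 4 passed the test between the cytokine pairs (adjusted p = 0.075, 0.871, 0.141 and 0.219). The GTPase genes whose promoters are shown had smaller differences: Irgm2 had 14.6, 21.6 and 14.8 FPKM in Th0 and 2.82, 4.38 and 5.89 FPKM in the treated libraries. Igtp had 283, 358 and 299 FPKM in Th0 and 118, 99.5 and 113 FPKM in the treated libraries (differences −1.76 ± 0.28 and −1.50 ± 0.18, adjusted p = 0.000639 and 6.81e-05). Tgtp1 and Tgtp2 fell by 0.99 and 1.19 on the log2 scale (adjusted p = 0.0101 and 1.95e-05). They are near-identical copies between which reads could be split, so their separate values are uncertain, as are those among the Gbp copies. Gbp2 had 362, 468 and 408 FPKM in Th0 and 199, 244 and 178 FPKM in the treated libraries and 48.9, 45.9 and 34.3 FPKM with TNF+TGF-β, a difference between the cytokine pairs (2.24 ± 0.17, adjusted p = 3.76e-06). The Gbp genes lie in a pair of clusters. On chromosome 3 (chr3:142493978-142638008, 144 kb) all 4 listed genes were lower and the remaining tested coding gene, Gbp2b, was not called. On chromosome 5 (chr5:105014150-105293698, 280 kb) all 5 tested coding genes were Gbp genes and lower.

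MHC class I presentation had 17 of 18 genes called lower and 0 higher, with a median difference of −1.16 and counts of 14 to 17 lower when single libraries were left out. The heavy chain gene H2-K1 had 2788, 1736 and 2618 FPKM in Th0 and 1298, 702 and 829 FPKM in the treated libraries. H2-D1 had 1861, 1882 and 1956 FPKM in Th0 and 752, 994 and 1045 FPKM in the treated libraries. Neither overlapped (differences −1.35 ± 0.24 and −1.04 ± 0.15, adjusted p = 0.00148 and 0.00035). B2m, the invariant chain, fell from 3605 ± 322 to 1885 ± 381 FPKM (SD, n = 3; adjusted p = 0.000913). The peptide transporter gene Tap1 had 274, 299.6 and 286 FPKM in Th0 and 53.3, 75.5 and 77.4 FPKM in the treated libraries (difference −2.06 ± 0.14, adjusted p = 9.12e-07). The immunoproteasome gene Psmb9 had 489, 398 and 451 FPKM in Th0 and 118, 85.4 and 84.2 FPKM in the treated libraries (−2.22 ± 0.15, adjusted p = 7.67e-07). Nlrc5, the transactivator of class I genes, had 34, 39.2 and 35.2 FPKM in Th0 and 6.92, 9.94 and 10.4 FPKM in the treated libraries (−1.90 ± 0.19, adjusted p = 1.76e-05). Tapbp (tapasin) was just outside the threshold (−0.37 ± 0.12, adjusted p = 0.0506) and was called lower with median-ratio (−0.44) or upper-quartile scaling (−0.47), a pseudocount of 0.1 or a filter of 5 FPKM. None of H2-K1, H2-D1, B2m, Tap1, Psmb9 or Nlrc5 passed the test between IL-6+TGF-β and TNF+TGF-β (adjusted p = 0.382 to 0.938). B cells and myeloid cells also express interferon-induced and class I genes. The sums of the B cell and MHC class II markers given above had lower ranges with IL-6+TGF-β too. Of 11 myeloid markers 2 were called lower, and 1 in most fits without a single library, against 9.67% of all genes tested. The part of these cells in the interferon and class I results was not tested.

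Ly6 and serpin genes completed the largest falls. Of 9 tested Ly6 family genes 5 were lower and 1 higher (0 without Th0 replicate 3). Ly6c2, an interferon-responsive surface protein of memory T cells and monocytes, had 315, 273 and 318 FPKM in Th0 and 14.3, 10.6 and 14.6 FPKM in the treated libraries (difference −4.43 ± 0.23, adjusted p = 1.04e-07). Ly6a, which encodes Sca-1, had 1348, 1243 and 1521 FPKM in Th0 and 441, 428 and 394 FPKM in the treated libraries and 20.5, 20.5 and 22.1 FPKM with TNF+TGF-β. The 3 groups did not overlap and the IL-6 cells lay between the others (adjusted p = 0.000479 against Th0 and 6.81e-07 against TNF+TGF-β). Among 14 tested protease inhibitors, 6 were lower and 5 higher. Serpina3f had 87.7, 109.8 and 104 FPKM in Th0 and 0.26, 0.54 and 0.23 FPKM in the treated libraries. Its neighbour Serpina3g, an inhibitor of cathepsins in T cells, had 227, 271 and 268 FPKM in Th0 and 14.5, 14.8 and 18.8 FPKM in the treated libraries (differences −6.24 ± 0.16 and −3.92 ± 0.19, adjusted p = 4.59e-08 for Serpina3g). Reads may be split between these similar genes, and between Ly6c2 and its near-copy Ly6c1. In contrast Serpinb1a, an inhibitor of neutrophil proteases, had 25.9, 15.4 and 24.9 FPKM in Th0 and 162, 101 and 135 FPKM in the treated libraries and 8.71, 7.76 and 9.45 FPKM with TNF+TGF-β (difference from Th0 2.54 ± 0.34, adjusted p = 0.000182; from TNF+TGF-β 3.77 ± 0.34, adjusted p = 1.37e-05).

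Metabolic and growth genes came last. Of 19 glycolysis genes 0 were higher and 7 lower (4 without Th0 replicate 3 or without IL-6+TGF-β replicate 3), with a median difference of −0.52. Hk2, a hexokinase gene, had 18, 23 and 18.8 FPKM in Th0 and 7.55, 9.48 and 6.17 FPKM in the treated libraries (difference −1.27 ± 0.25, adjusted p = 0.00283). Gapdh was not called (−0.43 ± 0.21, adjusted p = 0.168; called lower without IL-6+TGF-β replicate 1, −0.62). Of 16 tested hypoxia response genes 2 were higher and 5 lower (1 higher and 3 to 5 lower without single libraries). Egln3, an oxygen sensor gene of the hypoxia response, rose: it had 2.51, 4.75 and 3.2 FPKM in Th0 and 26.6, 25.3 and 23.5 FPKM in the treated libraries (limma adjusted p = 6.25e-06). Bnip3, a mitophagy gene of the same response, fell: it had 48.1, 64.2 and 49 FPKM in Th0 and 32.6, 28.7 and 23.8 FPKM in the treated libraries (adjusted p = 0.00121). None of 20 S phase genes and none of 20 G2/M genes was called in either direction, with median differences of −0.22 and 0.12. Without IL-6+TGF-β replicate 1, 1 S phase gene was higher and 3 lower and 1 G2/M gene was lower, and with median-ratio scaling 2 S phase genes and 1 G2/M gene were lower. Myc, a transcription factor gene of growth in activated T cells, was not called (limma adjusted p = 0.365). It had 145, 239.6 and 175 FPKM in Th0 and 206, 273 and 233 FPKM in the treated libraries. In the BCL2 family 15 genes were tested, and 6 were lower and 2 higher (5 to 6 lower and 1 to 3 higher without single libraries). Over all genes tested 9.67% were lower and 14.9% higher, so the counts of 2 higher in the hypoxia and BCL2 lists were near that share. Bcl2 itself was not called (limma adjusted p = 0.452). Bcl2l11, which encodes the death-promoting BIM, fell from 22 ± 1.15 to 11.2 ± 1.07 FPKM and Pmaip1, which encodes NOXA, rose from 9.76 ± 0.516 to 32.8 ± 1.91 FPKM (SD, n = 3; adjusted p = 0.00139 and 0.000105).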

How the data were processed

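Messenger RNA of 12 wild-type or TNFR2-deficient T cell samples was sequenced from low-input, strand-unmarked libraries, per the labels' protocols. Per the submitters' processing notes, reads were trimmed with Trimmomatic, aligned to mm10 with STAR 2.5.4 and quantified with RSEM 1.3.1. The authors deposited 1 table whose values are read here as FPKM, from their sums and their dependence on gene length. Depth was estimated from the steps of low values in genes with 1 transcript and limits the precision of low levels.

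Differences were computed with limma 3.58.1 in R 4.3.3 on log2(FPKM + 1), with 1 mean per group over all 12 libraries and a variance prior following the mean level. The fit held 13082 genes (1 FPKM or more in at least 3 of 12 libraries), with Benjamini-Hochberg adjustment over all of them, and the 12045 genes that pass within the 6 libraries were read; "called" means an adjusted p under 0.05. Coordinates are those of GENCODE M21 on GRCm38, and promoter sequences come from RefSeq. The fit was tested on simulated data. Python 3.11.15, pandas 2.3.3 and matplotlib 3.10.9 served for summaries and figures.

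Genes and lists were chosen with earlier results of these data known. Named genes were a set of pathway genes, the 10 largest rises and falls (predicted and immune receptor genes left out), up to 4 called members a list and members on which a list's role turns; some further list members are named beside them. Alternatives covered the pseudocount, filter, scaling, variance prior, libraries fitted, a replicate block and leaving out each library. Some genes are not reported here; they stay in the fit and in the list counts.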

Additional observations from a re-analysis of the deposited data

How the results depend on the processing

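Against Th0, the number of genes called higher ranged from 1314 to 2156, and that of genes called lower from 769 to 1613, when single libraries were left out. The lowest counts came without Th0 replicate 3 and the highest without IL-6+TGF-β replicate 1. Of 259 named genes 235 were called, 39 of these lost the call under at least 1 alternative, 38 of them in a fit without 1 library, and 0 called genes turned. The cause was not tested. Low levels are limited by depth. With a filter of 5 FPKM the median of the erythroid and platelet markers could not be computed, since no member was left.

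Genes whose difference from Th0 lay near 0 changed sign. Ifng came to 0.008 with a pseudocount of 0.1 and 0.102 with TPM, and to −0.490 to 0.405 without single libraries. Socs1 came to 0.107 with TPM and to −0.076 to 0.089 without single libraries. Il6ra came to −0.061 with median-ratio and −0.086 with upper-quartile scaling, and to −0.141 to 0.196 without single libraries. Without single libraries Ikzf2 ranged from −0.314 to 0.061, Ighm from −0.052 to 0.287 and Ighd from −0.021 to 0.530.

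With the replicate number as a block in the 6 libraries, 2091 genes were higher and 1544 lower, against 1647 and 1118 in the same libraries without the block. Correlations of same-numbered libraries' deviations from the group means were 0.367, 0.406 and 0.054 for replicates 1, 2 and 3. Those of differently numbered libraries were −0.401 to 0.12, so replicates 1 and 2 correlated best with their own number. Th0 replicate 3 correlated best with IL-6+TGF-β replicate 1 (0.12). The labels do not say that equal numbers pair the samples, so the main fit holds no block. A shared replicate effect was not tested. With the block 1 of the called named genes lost its call.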

Other observations

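The genes in this paragraph were chosen after their values were seen. The immunoglobulin heavy chain constant genes on chromosome 12 (chr12:113254830-113422730 of GRCm38) went in different directions. Igha, the IgA constant gene, had 0.38, 1.08 and 0.16 FPKM in Th0 and 146, 161 and 114 FPKM in the treated libraries, and 63.8, 94 and 66.2 FPKM with TNF+TGF-β. Both TGF-β cultures lay far above Th0. Ighg2c, an IgG constant gene, had 17.8, 15.9 and 19.8 FPKM in Th0 and 0, 0.14 and 0 FPKM in the treated libraries, the opposite order. Ighm and Ighd, the IgM and IgD constant genes, were not called, at 964 ± 68.7 and 154 ± 34.1 FPKM in Th0 and 1059 ± 245 and 194 ± 78 FPKM in the treated libraries (SD, n = 3).

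Among genes of no list, Mt1, which encodes a metal-binding metallothionein, had 43.3, 58.8 and 65.1 FPKM in Th0 and 539, 307 and 504 FPKM in the treated libraries. Its mean with TNF+TGF-β was 67.1 ± 13 FPKM (SD, n = 3). Sgk1, a kinase gene of salt sensing, had 5.02, 4.89 and 4.37 FPKM in Th0 and 143, 153 and 138 FPKM in the treated libraries, with each treated library far above Th0. Ifitm2, an interferon-induced membrane protein gene, had 154, 152 and 147 FPKM in Th0 and 18.5, 18.3 and 11.4 FPKM in the treated libraries, and 292 ± 27.6 FPKM (SD, n = 3) with TNF+TGF-β. Its neighbours on chromosome 7 did not all go the same way. Ifitm3 had 17.7, 20.1 and 25.3 FPKM in Th0 and 1.27, 2.7 and 1.92 FPKM in the treated libraries, a fall, whereas Ifitm1 went up from 1.51 ± 1.1 to 25 ± 4.32 FPKM, without overlap between the groups, and had 3.09 ± 0.407 FPKM with TNF+TGF-β (SD, n = 3). These genes too were picked for their values, so no test is given for them.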
